A study of Mus musculus with 12 samples.

Results

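The muscle atrophy ligases, the FoxO factors and autophagy genes that FoxO factors are known to drive were followed in mouse hearts. Hearts titled cardioGRKO, in which cardiomyocytes are meant to lack the glucocorticoid receptor, were compared with floxed hearts. The group holds 9 genes chosen by symbol: the ubiquitin ligases Trim63, Fbxo32 and Fbxo40, the transcription factors Foxo1 and Foxo3, and the autophagy genes Bnip3, Gabarapl1, Map1lc3b and Sqstm1. All 9 of the 24918 genes in the deposited table were found as 1 row each, and all 9 passed the filter on low values, which left 14721 genes. Hearts of untreated C57BL/6 mice aged 2 months gave 12 libraries in 4 groups of 3. By their titles, male and female cardioGRKO mice carry GRloxP/loxP and αMHCCre/+, a Cre transgene driven by the α-myosin heavy chain promoter of cardiomyocytes. Male and female floxed mice are given as GRloxP,loxP and carry no Cre by their titles, so an effect of Cre cannot be told apart from that of the deletion. The labels also carry a genotype field, which gives wild-type for every library, so the grouping rests on the titles. Separate animals are not stated for the 3 libraries of a group, and p-values then measure a spread between libraries that may be technical.

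Muscle loses protein by the ubiquitin-proteasome system and by autophagy. Glucocorticoids are known to raise both in skeletal muscle, in which the receptor and FoxO factors act on the genes of the ligases, while insulin and Akt hold FoxO factors outside the nucleus. Trim63, also called MuRF1, binds the sarcomere and tags myosin and other contractile proteins, and Fbxo32, also called atrogin-1, brings substrates to an SCF ligase. In the heart these ligases are known to limit growth of the muscle, and autophagy clears worn mitochondria and protein aggregates.

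The promoter of Trim63 is shown because glucocorticoid receptor and FOXO1 are known to act together on it through neighbouring elements, and because Trim63 was the ligase gene with lower values in both cardioGRKO groups. The window is RefSeq's on build GRCm38.p6, chr4:134314870-134315169 on the plus strand, with 250 bases before the start of the transcript and 50 from it on. Capitals mark 2 matches to motifs, a degenerate glucocorticoid response element and a FoxO element.

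Trim63: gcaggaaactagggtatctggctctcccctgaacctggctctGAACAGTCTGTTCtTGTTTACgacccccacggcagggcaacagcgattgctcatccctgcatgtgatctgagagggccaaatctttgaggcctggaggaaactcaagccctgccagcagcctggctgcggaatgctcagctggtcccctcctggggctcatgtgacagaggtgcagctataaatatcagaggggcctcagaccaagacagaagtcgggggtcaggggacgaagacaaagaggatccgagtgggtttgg

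The first match, GAACAGTCTGTTC, lies at -208 to -196 from the start of the transcript, and the second, TGTTTAC, at -194 to -188, with 1 base between them. The degenerate element was searched as the arms GNACA and TGTNC with 3 bases between them, and it was found in 0.475% of 32851 promoter windows of the same length. The FoxO element was searched on both strands as GTAAACA and was found in 3.65% of the windows. Both motifs stood in 5 windows, and in only 1 of these, that of Trim63, with at most 10 bases between them, a limit chosen after the window had been read. The full palindrome with the arms AGAACA and TGTTCT, found in 3 windows of 32851, had no match in the windows of the group. Of the other genes, 7 had windows in RefSeq's table, and Fbxo32 had none. Among these 7 the only match was the E-box CACGTG, which 7.15% of all windows hold, in the window of Bnip3 at -108 to -103 from its start. It is shown in capitals within chr7:138909582-138909641 on the minus strand.

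Bnip3: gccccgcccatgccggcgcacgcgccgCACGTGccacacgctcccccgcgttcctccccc

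A match of letters is a description of the sequence, and no binding was measured.

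The values are the authors' log2 counts after DESeq2 normalization, and sequencing depth is unknown because they were put on a common scale. Nr3c1, the gene of the receptor, was read first, since it checks the labels. In males it stood at 10.83, 10.85 and 10.88 in cardioGRKO hearts and at 11.40, 11.42 and 11.42 in floxed hearts, which leaves 67.8% of the floxed level. With the female labels it stood at 10.90, 10.90 and 10.85 under the cardioGRKO label and at 10.74, 10.71 and 10.78 under the floxed label, the opposite of what the labels imply. The libraries labelled female floxed stood at 62.9% of male floxed hearts (limma adjusted p = 1.4e-12). Those labelled female cardioGRKO did not differ detectably from male cardioGRKO hearts (0.03, limma adjusted p = 0.41). Neither group labelled female thus reached the level of male floxed hearts. The libraries of these groups are therefore called by their labels throughout, and every direction given for them rests on those labels. Libraries 1 and 2 labelled female floxed also hold transcripts of corneal epithelium, with Krt12 at 13.13 and 13.98 against 7.16 to 8.49 in the other 10 libraries. Results of the 9 genes and counts over lists in the female comparison are given with and without these 2 libraries. In these bulk samples, fewer cells of a type and less RNA per cell cannot be told apart.

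Among the male groups, 6 of the 9 genes changed, 4 lower and 2 higher in cardioGRKO hearts, while 27.4% of all genes tested were called (14.6% lower and 12.8% higher). Trim63, Fbxo40, Bnip3 and Map1lc3b fell, and Fbxo32 and Sqstm1 rose. In the libraries labelled female, 5 of 9 changed, 1 lower and 4 higher under the cardioGRKO label, while 29.3% of all genes were called (14% lower and 15.2% higher). Under these labels Trim63 fell, and Fbxo40, Gabarapl1, Map1lc3b and Sqstm1 rose. The count stayed at 4 higher and 1 lower without the 2 libraries with corneal transcripts, against 18.6% of all genes in that fit. Trim63 fell and Sqstm1 rose in both comparisons. Over all genes, 1.69% were called lower in both and 2.25% higher in both. The median difference of the 9 genes was -0.03 in males and 0.074 in the libraries labelled female, against -0.002 and 0 over all genes. All calls are limma's adjusted p under 0.05, with the Benjamini-Hochberg method over the 14721 genes.

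**Figure D1:**
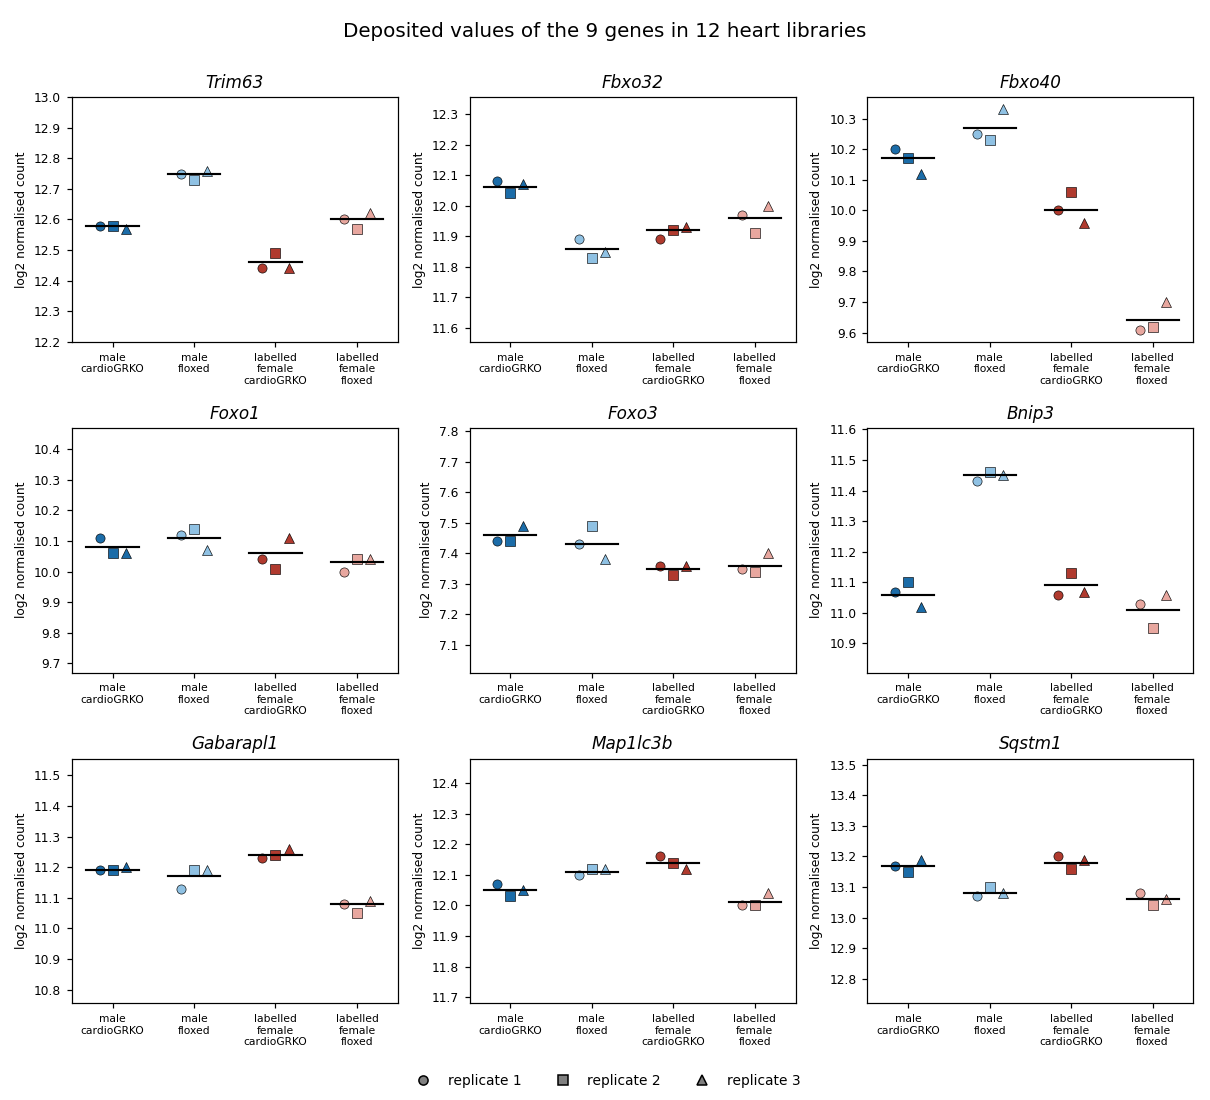
Deposited log2 normalised counts (vertical axes, each spanning 0.8) of the 9 genes in the 12 libraries, with a symbol for each replicate number and a line at the mean of each group of 3. Trim63 is lower and Sqstm1 higher in both cardioGRKO groups than in their floxed groups, Bnip3 is high in male floxed hearts alone, at 11.43 to 11.46, and Fbxo40 is lowest in the libraries labelled female floxed, at 9.61 to 9.70.

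Of the ligases, Trim63 showed the same direction in both comparisons. In males it stood at 12.58, 12.58 and 12.57 in cardioGRKO hearts and at 12.75, 12.73 and 12.76 in floxed hearts. Under the female labels it stood at 12.44, 12.49 and 12.44 in cardioGRKO and at 12.60, 12.57 and 12.62 in floxed libraries. The cardioGRKO and floxed libraries did not overlap in either comparison, and the libraries labelled female floxed overlapped with male cardioGRKO hearts. The change in males was -0.17 on the log2 scale (SE 0.019, limma adjusted p = 3.4e-06), or 88.9% of the floxed level. With the female labels it was -0.14 (SE 0.019, adjusted p = 3.2e-05), or 90.6%, and -0.17 without the 2 libraries with corneal transcripts (adjusted p = 3.56e-05). The changes did not differ detectably between the sexes, by -0.03 with a 95% interval of -0.08 to 0.03 (adjusted p = 0.51). Nr3c1 itself moved in opposite directions in these comparisons. Trim63 was also lower in the libraries labelled female floxed than in male floxed hearts, at 90.2% (adjusted p = 8.7e-06), and lower in those labelled female cardioGRKO than in male cardioGRKO hearts, at 91.8% (adjusted p = 0.00018).

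Fbxo32, often read beside Trim63 as a sign of atrophy, went the other way in males. It stood at 12.08, 12.04 and 12.07 in male cardioGRKO hearts and at 11.89, 11.83 and 11.85 in male floxed hearts. All 3 male cardioGRKO libraries lay above all male floxed libraries, and the gene rose by 0.21 (SE 0.024, limma adjusted p = 4.5e-06), to 115% of the floxed level. The libraries labelled female had 11.89, 11.92 and 11.93 in cardioGRKO and at 11.973, 11.913 and 11.996 in floxed libraries, which overlapped. That difference, -0.04 with a 95% interval of -0.09 to 0.01, was not called (adjusted p = 0.19, and 0.0828 at -0.08 without the 2 libraries with corneal transcripts). It was called, at -0.07, without library 2 labelled female floxed (adjusted p = 0.0464) and after quantile normalization (adjusted p = 0.0447). The male and female changes differed by 0.25 (SE 0.034, adjusted p = 2.3e-05).

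Fbxo40, a muscle-specific F-box protein that brings Irs1 to degradation, varied most between the groups. It stood at 10.20, 10.17 and 10.12 in male cardioGRKO hearts and at 10.25, 10.23 and 10.33 in male floxed hearts, a change of -0.10 (SE 0.034, limma adjusted p = 0.037). The libraries labelled female had 9.995, 10.057 and 9.962 in cardioGRKO and at 9.61, 9.62 and 9.70 in floxed libraries, a rise of 0.36 (SE 0.034, adjusted p = 7.3e-07) to 129%. The groups did not overlap in either comparison. Without the 2 libraries with corneal transcripts the rise was 0.305 (adjusted p = 2.74e-06). The small fall in males was not called without male cardioGRKO 2 or 3 (-0.11 and -0.08, adjusted p = 0.0727 and 0.161) or without male floxed 1 or 3 (-0.11 and -0.07, adjusted p = 0.0542 and 0.181). Nor was it called without a filter on low values (adjusted p = 0.133) or after quantile normalization (adjusted p = 0.0616). The male and female changes differed by -0.46 (adjusted p = 1.4e-06), and the libraries labelled female floxed stood at 64.8% of male floxed hearts (adjusted p = 2.9e-10).

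Foxo1 and Foxo3, the factors that carry the signal of low insulin or Akt activity to the ligase and autophagy genes, did not pass the test in either comparison. Foxo1 ranged from 10.06 to 10.11 in male cardioGRKO hearts and from 10.07 to 10.14 in male floxed hearts, and from 10.01 to 10.11 and 9.999 to 10.039 in the libraries labelled female cardioGRKO and floxed. Foxo3 ranged from 7.44 to 7.49 and 7.38 to 7.49 in male cardioGRKO and floxed hearts, and from 7.33 to 7.36 and 7.34 to 7.40 in the libraries labelled female cardioGRKO and floxed. All 4 pairs of groups overlapped. The 95% intervals of the differences were -0.09 to 0.03 for Foxo1 and -0.04 to 0.09 for Foxo3 in males, and -0.03 to 0.09 and -0.08 to 0.05 in the libraries labelled female. Without the 2 libraries with corneal transcripts those differences stood at 0.018 for Foxo1 and -0.05 for Foxo3 (limma adjusted p = 0.833 and 0.489). These are differences of mRNA, and the position or phosphorylation of FoxO proteins was not measured.

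Bnip3, a receptor on the outer mitochondrial membrane that calls in autophagosomes, had the largest change of the group in males. It stood at 11.07, 11.10 and 11.02 in male cardioGRKO hearts and at 11.43, 11.46 and 11.45 in male floxed hearts. These groups did not overlap, and the gene fell by 0.39 (SE 0.03, limma adjusted p = 3.6e-08), to 76.6% of the floxed level. Only 1.13% of all genes tested differed by more. Under the female labels it stood at 11.06, 11.13 and 11.07 in cardioGRKO and at 11.03, 10.95 and 11.06 in floxed libraries. These overlapped, and the difference of 0.07 was not called (adjusted p = 0.07, and 0.708 at 0.025 without the 2 libraries with corneal transcripts). It was called, at 0.10, without library 3 labelled female floxed (adjusted p = 0.0154) and, at 0.07, with robust moderation (adjusted p = 0.0347). The changes differed by -0.46 between the sexes (adjusted p = 2.5e-07). The other 3 groups lay between 10.95 and 11.13, so only male floxed hearts stood apart.

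Gabarapl1 and Map1lc3b encode proteins of the Atg8 family, which are joined to lipid on the growing autophagosome and bind cargo receptors. Gabarapl1 stood at 11.19, 11.19 and 11.20 in male cardioGRKO hearts and at 11.13, 11.19 and 11.19 in male floxed hearts, which overlapped. Among libraries labelled female it stood at 11.23, 11.24 and 11.26 in cardioGRKO and at 11.08, 11.05 and 11.09 in floxed libraries. The female groups were apart, with a rise of 0.17 (SE 0.022, limma adjusted p = 2.3e-05), to 112%, and of 0.15 without the 2 libraries with corneal transcripts (adjusted p = 0.00177). In males the difference was 0.02 with a 95% interval of -0.02 to 0.07 (adjusted p = 0.48), and the changes differed by -0.14 (adjusted p = 0.0017).

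Map1lc3b, which encodes LC3B, the protein most used to mark autophagosomes, moved in opposite directions. It stood at 12.07, 12.03 and 12.05 in male cardioGRKO hearts and at 12.10, 12.12 and 12.12 in male floxed hearts. Among libraries labelled female it stood at 12.16, 12.14 and 12.12 in cardioGRKO and at 12.004, 12.002 and 12.038 in floxed libraries. The groups were apart in both comparisons. The gene changed by -0.07 in males (SE 0.019, limma adjusted p = 0.016), to 95.6%, and rose by 0.12 in the libraries labelled female (SE 0.019, adjusted p = 0.00013), to 109%. The male call was lost without male cardioGRKO 2 (-0.055, adjusted p = 0.0768), without male floxed 3 (-0.062, adjusted p = 0.0507) and after quantile normalization (-0.044, adjusted p = 0.102). The rise under the female labels was 0.10 without the 2 libraries with corneal transcripts (adjusted p = 0.0169). The changes differed by -0.19 (adjusted p = 3.8e-05).

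Sqstm1, or p62, binds ubiquitin on cargo and Atg8 proteins on the autophagosome membrane. It stood at 13.17, 13.15 and 13.19 in male cardioGRKO hearts and at 13.07, 13.10 and 13.08 in male floxed hearts. Among libraries labelled female it stood at 13.20, 13.16 and 13.19 in cardioGRKO and at 13.08, 13.04 and 13.06 in floxed libraries. Both cardioGRKO groups lay above both floxed groups. The gene rose by 0.09 in males (SE 0.018, limma adjusted p = 0.0014), to 106%, and by 0.12 in the libraries labelled female (SE 0.018, adjusted p = 6.9e-05), to 109%, unchanged at 0.12 without the 2 libraries with corneal transcripts (adjusted p = 0.000987). The changes did not differ detectably, by -0.04 with a 95% interval of -0.09 to 0.02 (adjusted p = 0.29). No difference by sex was detectable between the cardioGRKO groups or the floxed groups (adjusted p = 0.71 and 0.26).

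**Figure D2:**
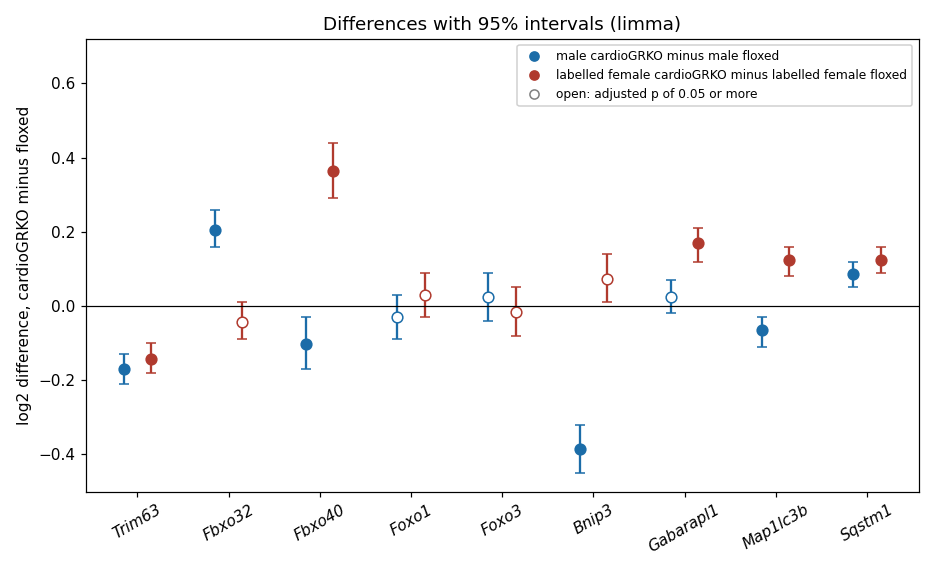
Log2 differences (vertical axis, cardioGRKO minus floxed) of the 9 genes with 95% intervals from limma, in males and in the libraries labelled female, with open symbols for adjusted p of 0.05 or more. Trim63 at -0.17 and -0.14 and Sqstm1 at 0.09 and 0.12 have the same sign with intervals clear of 0, and Fbxo40, at -0.10 and 0.36, and Map1lc3b, at -0.07 and 0.12, have opposite signs.

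The difference between the male and the female change was called for 5 of the 9 genes, Fbxo32, Fbxo40, Bnip3, Gabarapl1 and Map1lc3b, 1 higher and 4 lower, against 31.3% of all genes tested (14.3% higher and 17% lower). The count was 5 also without the 2 libraries with corneal transcripts, against 26.3% of all genes in that fit. The sign of the female change rests on the labels that Nr3c1 goes against, and with it this difference and the average of both changes. That average was called for 6 of 9, 4 higher and 2 lower, against 24.6% of all genes (12.2% higher and 12.4% lower). Trim63 averaged -0.16 (limma adjusted p = 3.2e-07) and Sqstm1 0.10 (adjusted p = 1.2e-05), while for Fbxo40 the average of 0.13 joins changes of opposite sign. Between the sexes, 7 of 9 genes were called in the libraries labelled female floxed against male floxed hearts, 1 higher and 6 lower, where 44.2% of all genes were called (21.5% higher and 22.7% lower). Without the 2 libraries with corneal transcripts 4 of 9 were called, against 32.2% of all genes in that fit. Between the cardioGRKO groups 5 of 9 were called, 1 higher and 4 lower, against 24.2% of all genes (11.9% higher and 12.4% lower).

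The order of the groups differed from gene to gene. Trim63 averaged 12.58 ± 0.009 in male cardioGRKO hearts and 12.75 ± 0.014 in male floxed hearts, and 12.46 ± 0.027 and 12.60 ± 0.025 in the libraries labelled female cardioGRKO and floxed (SD, n = 3 each). Its order was male floxed, female floxed, male cardioGRKO and female cardioGRKO from high to low, and only the middle neighbours overlapped. Fbxo40 had no overlap between neighbours, with 10.17 ± 0.041 in male cardioGRKO hearts and 10.27 ± 0.054 in male floxed hearts, above 10.005 ± 0.048 and 9.64 ± 0.05 in the libraries labelled female cardioGRKO and floxed. For Bnip3 only male floxed hearts, at 11.45 ± 0.014, were apart from the next group, and the means of the other 3 ran from 11.01 to 11.09. Fbxo32 was highest in male cardioGRKO hearts (12.06 ± 0.021) and lowest in male floxed hearts (11.86 ± 0.031), with the overlapping libraries labelled female between them. Gabarapl1 was highest in the libraries labelled female cardioGRKO (11.24 ± 0.015), lowest in those labelled female floxed (11.08 ± 0.021), and overlapped between the male groups. Map1lc3b had the same extremes, at 12.14 ± 0.02 and 12.01 ± 0.02, each overlapping with its neighbour in males. Foxo1 and Foxo3 overlapped between all neighbours, though Foxo1 was lower in the libraries labelled female floxed than in male floxed hearts (-0.085, limma adjusted p = 0.026) and Foxo3 lower in those labelled female cardioGRKO than in male cardioGRKO hearts (-0.11, adjusted p = 0.012). The Foxo1 call was lost without the 2 libraries with corneal transcripts (-0.072, adjusted p = 0.2), without male floxed 1 or 2 (adjusted p = 0.0679 and 0.105), without library 1 labelled female floxed alone (adjusted p = 0.0996) and with no filter on low values (adjusted p = 0.0693). The Foxo3 call was lost without male cardioGRKO 3 (adjusted p = 0.0642) or without library 2 labelled female cardioGRKO (adjusted p = 0.0518).

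Markers of cell types moved in the same comparisons. Of all genes tested, 12.8% were called higher and 14.6% lower in males, and 15.2% higher and 14% lower under the female labels. Without the 2 libraries with corneal transcripts 18.6% were called under those labels in either direction. Counts of 1, such as the 16.7% of adipocyte markers called higher in males, lie near those shares and are no result about their list. In male cardioGRKO hearts 7 of 9 cardiomyocyte markers were called lower and 1 higher, with summed linear levels of 2070000 to 2090000 against 2210000 to 2260000 in male floxed hearts. After quantile normalization this count turned to 1 lower and 3 higher. Of the same 9 markers in the libraries labelled female, 3 were called higher and 1 lower, with sums of 2120000 to 2140000 under the cardioGRKO label against 2100000 to 2190000 under the floxed label. That count turned to 3 higher and 4 lower without the 2 libraries with corneal transcripts and was 2 higher and 2 lower after quantile normalization. All 6 atrial markers were called higher in males, with sums of 134000 to 135000 in cardioGRKO hearts against 28800 to 29300 in floxed hearts. Under the female labels all 6 were called lower, also without the 2 libraries, with sums of 50000 to 51100 in cardioGRKO libraries against 105000 to 108000 in floxed libraries. Skeletal muscle, which expresses the ligases too, had 9 of 12 markers tested, of which 5 were called higher and 1 lower in each comparison (5 and 0 under the female labels without the 2 libraries). Its summed levels did not rise in males, at 103000 to 105000 in cardioGRKO hearts against 105000 to 108000 in floxed hearts. Under the female labels they were 104000 to 110000 in cardioGRKO libraries against 98900 to 102000 in floxed libraries. Its fast myosins Myh1, Myh2 and Myh4 were at or near 0, with highest values of 0.10, 1.19 and 0.08. Of 7 endothelial markers 1 was called higher and 6 lower in males, and 5 higher and 1 lower under the female labels (4 and 1 without the 2 libraries). Of 7 fibroblast markers 5 were called higher and 0 lower in males, and 1 higher and 5 lower under the female labels (0 and 4 without the 2 libraries). Of 6 adipocyte markers tested 1 was called higher and 3 lower in males, with sums of 1400 to 1490 in cardioGRKO hearts against 1600 to 1640 in floxed hearts. With the female labels 5 adipocyte markers were called higher and 0 lower, also without the 2 libraries, with sums of 1880 to 1910 in cardioGRKO libraries against 1260 to 1340 in floxed libraries. The summed levels of 7 macrophage markers overlapped in males, at 10300 to 10900 in cardioGRKO hearts against 10300 to 10500 in floxed hearts, and 4 were called higher and 1 lower under the female labels (2 and 1 without the 2 libraries). Their part in the changes of the 9 genes was not tested.

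Around the 9 genes, 161 related genes were followed in 7 lists, of which 1 gene, Calcoco2, listed at 0 in all libraries, was not tested. Of all genes tested, 12.8% were called higher and 14.6% lower in males, and 15.2% higher and 14% lower in the libraries labelled female. Several counts below lie near those shares, such as 14.3% of proteasome, 15% of lysosomal and 17.2% of core autophagy genes called lower in males. Such counts are no result about their list. Without the 2 libraries with corneal transcripts 18.6% of all genes were called under the female labels, in either direction. After quantile normalization the male counts were even, at 4 higher and 4 lower for FoxO control, 3 and 3 for lysosome and 4 and 4 for proteasome. Among the genes named below as changed in the libraries labelled female, Mul1, Fbxo21, Nbr1 and Psma1 were not called without the 2 libraries with corneal transcripts, and the others kept their call and direction. Among other muscle ligases and their partners, 4 of 21 fell and 1 rose in males, with a median difference of -0.025. Fbxo31, an F-box protein known for degrading cyclin D1, fell by 0.43 (limma adjusted p = 2.5e-09), and the ligases Wwp1 and Cblb changed by -0.11 and -0.10 (adjusted p = 0.013 and 0.02). Under the female labels 7 of 21 rose and 1 fell (median 0.057), but only 1 rose and 1 fell without the 2 libraries with corneal transcripts. Trim54, or MuRF3, the partner of Trim63 at the sarcomere, rose there by 0.24 (adjusted p = 2.3e-06) and changed by -0.08 in males (adjusted p = 0.026). Mul1, a ligase of the mitochondrial outer membrane, and Fbxo21 rose by 0.12 and 0.17 (adjusted p = 0.0053 each) in the libraries labelled female, calls that were lost without those 2 libraries. The male count was 1 higher and 4 lower, and it fell to 0 and 2 without male cardioGRKO 1, 0 and 3 without male cardioGRKO 3, 0 and 2 without male floxed 2 and 0 and 1 without a filter on low values.

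Among genes that control FoxO factors, 6 of 21 fell and 4 rose in males, and 5 fell and 5 rose in the libraries labelled female (3 and 3 without the 2 libraries with corneal transcripts). Sgk1, a kinase that glucocorticoids induce and that phosphorylates FoxO3, changed by -0.38 in males and -0.34 in the libraries labelled female (limma adjusted p = 2.4e-09 and 2.1e-08). Pik3ip1, an inhibitor of PI3-kinase, rose by 0.29 in males (adjusted p = 1.5e-07), where Pik3r1, the regulatory subunit of that kinase, fell by 0.31 (adjusted p = 1.6e-06). Under the female labels these stood at -0.07 and 0.01 (adjusted p = 0.052 and 0.79), and the male and female changes differed by 0.35 and -0.32 (adjusted p = 6.8e-07 and 4.1e-05). Ppargc1a, the coactivator of mitochondrial genes, changed by -0.08 and -0.19 in males and in the libraries labelled female (adjusted p = 0.0099 and 5.4e-06). Prkaa2, a catalytic subunit of AMP-activated kinase, rose by 0.13 in the libraries labelled female (adjusted p = 0.00013).

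Genes known as FoxO or glucocorticoid targets in wasting muscle did not move together. In males 7 of 20 were higher by the test and 5 lower (median 0.022), and in the libraries labelled female 4 rose and 11 fell (median -0.10, and 3 and 10 without the 2 libraries with corneal transcripts). Ddit4, or REDD1, which restrains mTORC1, fell by 0.47 in males and 0.29 in the libraries labelled female (limma adjusted p = 2.5e-09 and 1.4e-06). Gadd45a, a stress gene linked to atrophy of muscle fibres, rose by 0.32 in males (adjusted p = 1.8e-08) and changed by -0.13 in the libraries labelled female (adjusted p = 0.00056). Sod2, the superoxide dismutase of mitochondria, fell by 0.16 in males (adjusted p = 1.6e-06). The largest change of the list was that of Txnip, which restrains glucose uptake, at -0.79 in the libraries labelled female (adjusted p = 2.3e-16) and 0.11 in males (adjusted p = 1.9e-05). Tsc22d3, a glucocorticoid-induced leucine zipper protein, changed by -0.36 in the libraries labelled female and rose by 0.10 in males (adjusted p = 3.9e-09 and 0.0026). Pdk4, which holds back pyruvate dehydrogenase and with it the burning of glucose, rose by 0.50 in the libraries labelled female and 0.09 in males (adjusted p = 5.6e-11 and 0.0044).

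**Figure D3:**
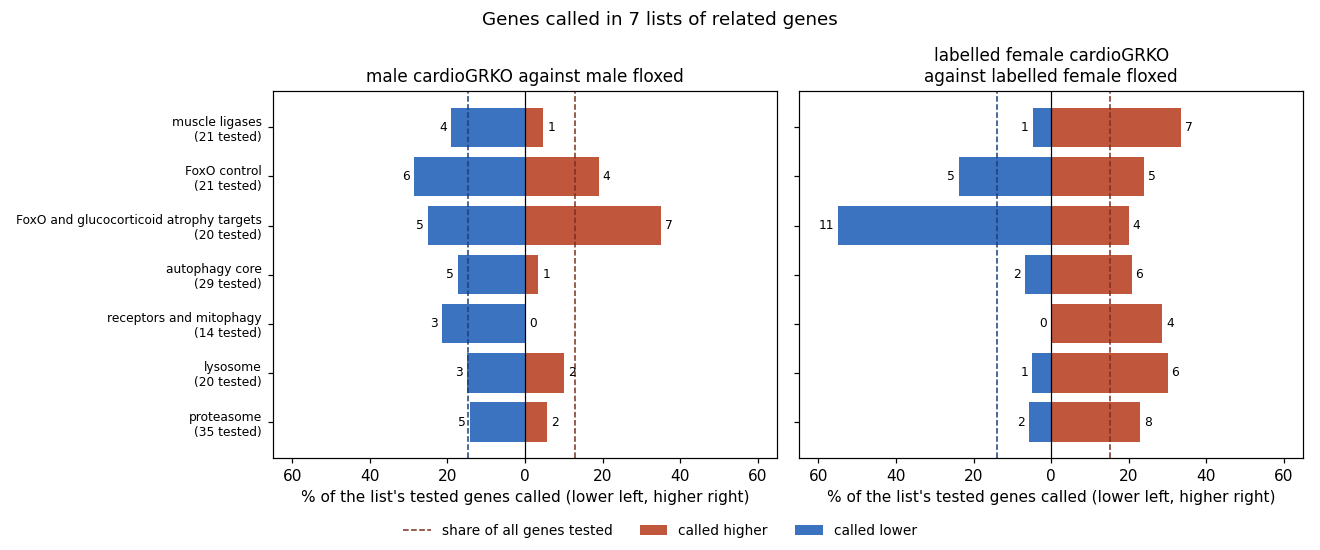
Share of each list's tested genes called lower (left of 0) and higher (right of 0) in % (horizontal axes), with the number of genes beside each bar and dashed lines at the share of all genes called, 14.6% lower and 12.8% higher in males, and 14% lower with 15.2% higher under the female labels. The FoxO and glucocorticoid atrophy targets have the longest bar, with 11 of 20 lower in the libraries labelled female. In the list of receptors and mitophagy, which leaves out the 9 genes, none of 14 tested was called higher in males or lower in those libraries.

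In the core machinery of autophagy 5 of 29 genes fell and 1 rose in males, with a median of -0.003, and 6 rose and 2 fell in the libraries labelled female, with a median of 0.001 (5 and 2 without the 2 libraries with corneal transcripts). Atg9a, the membrane protein that seeds autophagosomes, changed by -0.10 in males and rose by 0.14 in the libraries labelled female (limma adjusted p = 0.00091 and 5.1e-05). In males Rb1cc1, the scaffold of the ULK kinase complex, and Atg2a, a lipid transfer protein, changed by -0.10 and -0.11 (adjusted p = 0.0026 and 0.0035). Gabarap, a close relative of Gabarapl1, rose by 0.07 in males and 0.14 in the libraries labelled female (adjusted p = 0.018 and 6.9e-05). Ambra1, which tethers the beclin complex, fell by 0.17 in the libraries labelled female (adjusted p = 0.00018).

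Of 14 other cargo receptors and mitophagy genes, 3 fell and 0 rose in males, and 4 rose and 0 fell in the libraries labelled female, with medians of -0.034 and 0.042. In males Phb2, an inner membrane receptor for mitophagy, fell by 0.15, Bcl2l13, an outer membrane receptor, by 0.13, and Pink1, the kinase that marks damaged mitochondria, by 0.08 (limma adjusted p = 4.1e-05, 0.00064 and 0.0018). In the libraries labelled female Pink1 rose by 0.13 (adjusted p = 1.6e-05), Bag3, a co-chaperone that hands damaged sarcomere proteins to autophagy, by 0.32 (adjusted p = 7.8e-09) and Nbr1, a relative of Sqstm1, by 0.05 (adjusted p = 0.029). Nbr1 was not called without the 2 libraries with corneal transcripts, while the count stayed at 4 higher and 0 lower. It was 2 higher and 0 lower without library 2 or 3 labelled female cardioGRKO, without library 3 labelled female floxed, after quantile normalization and in a fit of these groups alone.

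Lysosomal genes rose in 6 of 20 cases and fell in 1 in the libraries labelled female (6 and 0 without the 2 libraries with corneal transcripts), and rose in 2 and fell in 3 in males. Ctsd, the main aspartic protease of the lysosome, rose by 0.27 and the membrane protein Lamp1 by 0.25 in the libraries labelled female (limma adjusted p = 1.4e-09 and 2.1e-08), and Ctsa by 0.10 (adjusted p = 0.00078). In males Lamp1 fell by 0.12 (adjusted p = 5.2e-05), Vamp8, a SNARE of autophagosome fusion, fell by 0.13 (adjusted p = 0.0034), and the protease Ctsb rose by 0.13 (adjusted p = 7.7e-06). Proteasome and ubiquitin genes rose in 8 of 35 cases and fell in 2 in the libraries labelled female, and rose in 2 and fell in 5 in males. The female count was 4 higher and 1 lower without the 2 libraries with corneal transcripts and 5 and 1 without library 2 labelled female cardioGRKO, and after quantile normalization it turned to 5 higher and 7 lower. Nfe2l1, the factor that raises proteasome genes, rose by 0.24 in the libraries labelled female and fell by 0.12 in males (adjusted p = 1.4e-08 and 3.7e-05). The proteasome subunits Psma1 and Psmd2 changed by -0.12 and -0.06 in males (adjusted p = 0.0006 and 0.027) and by 0.06 and 0.12 in the libraries labelled female (adjusted p = 0.039 and 9.2e-05). Psma1 was not called there without the 2 libraries with corneal transcripts (0.03, adjusted p = 0.54). The ubiquitin-activating enzyme Uba1 rose by 0.12 in the libraries labelled female (adjusted p = 7.4e-05).

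**Figure D4:**
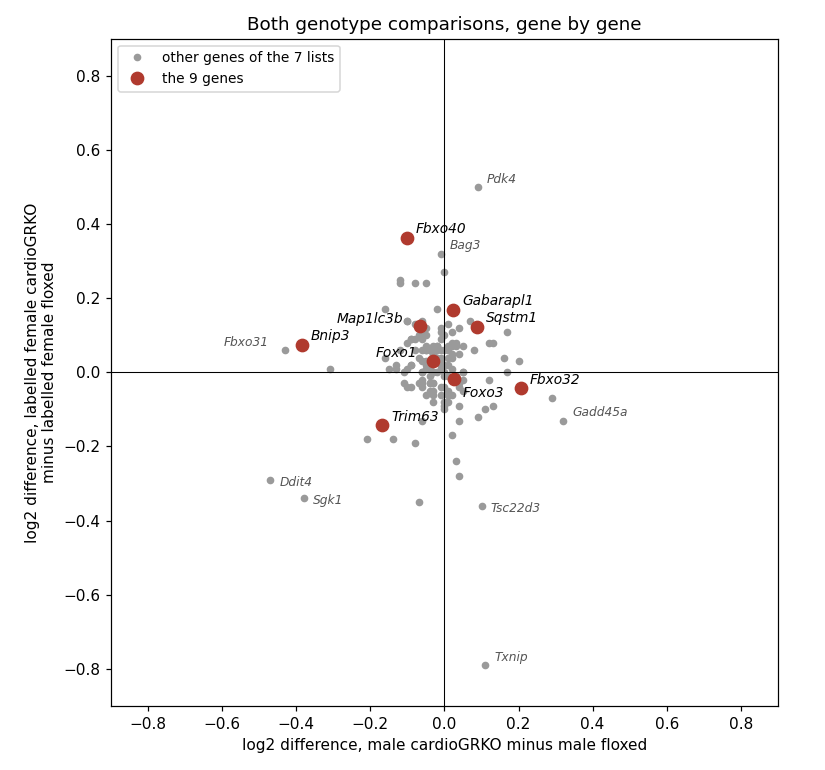
Log2 differences of the 9 genes (large points) and of the other genes of the 7 lists (small points) between cardioGRKO and floxed hearts, in males (horizontal axis) and in the libraries labelled female (vertical axis). Trim63 lies where both are lower, as do Ddit4 and Sgk1 farther out, Sqstm1 where both are higher, and Txnip, at -0.79, lies lowest on the vertical axis.

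The patterns of the 9 genes over the 12 libraries were set beside those of all genes tested, by Pearson's r of the log2 values and with no test, since groups and libraries are shared. Trim63 was most like Slc25a13 (0.979), Grb14 and Ralgapa2 (0.978 each), and Fbxo32 like Ryr3 (0.962), Adam11 (0.961) and Tmod4 (0.957). Fbxo40 was most like Fitm2 and Nid1 (0.987 each) and Myo1c (0.983). The nearest genes to Bnip3 were Arntl (0.993), Uqcrc2 (0.989) and B2m (0.987). For Map1lc3b they were Sox18 (0.982), Tuba8 (0.967) and Txn2 (0.960), for Gabarapl1 Mn1 (0.961), Alas2 (0.960) and Fcrls (0.956), and for Sqstm1 Aplp2 (0.948), Mybpc2 (0.940) and Cfd (0.938). The values were lower for Foxo1, with Tfe3 (0.925), Il2rb (0.896) and Cux1 (0.895), and for Foxo3, with Bend5 (0.934), Usp10 (0.908) and Hnrnpul1 (0.900). Within the group, Gabarapl1 and Sqstm1 had an r of 0.85, Trim63 and Bnip3 of 0.77 and Gabarapl1 and Map1lc3b of 0.76, while Trim63 and Fbxo32 stood at -0.32.

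In GENCODE's mouse annotation other genes overlap 6 of the 9. Sqstm1 overlaps Mrnip on the opposite strand, Map1lc3b overlaps Zcchc14 on the opposite strand and Gm20388 on its own, and Bnip3 overlaps an antisense gene and a processed pseudogene. Fbxo32, Foxo1 and Gabarapl1 overlap antisense transcripts or other models not marked as coding. The sources used here do not give the strand setting of the counting, so reads of such pairs cannot be told apart.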

How the data were processed

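Heart RNA (Trizol, then an RNeasy kit) was sequenced on an Illumina NextSeq from TruSeq libraries, per the labels. Per the submitters' processing notes, the tools were Trim Galore, TopHat2, HTSeq and DESeq2 and the build was mm9, with no versions. The authors deposited log2 values of normalized counts, 1 table for 24918 genes and 12 libraries. The step from counts to log2 is not given in the sources used here. Of the deposited genes 4895 have 0 in every library, and the lowest value is -2.2. If the logarithm was shrunken, differences of genes with few reads are understated. Depth is unknown, and levels are not per length, so they are not compared between genes.

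Symbols turned into dates (27) were restored through Entrez identifiers, and all columns were used. Genes with a normalized count of 10 or more (before log2) in at least 3 libraries entered a linear model (limma 3.58.1, R 4.3.3) that had 1 mean per group, 8 residual degrees of freedom and an intensity trend. Calls are two-sided p adjusted by Benjamini-Hochberg over 14721 genes, under 0.05.

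The members, lists and tests were chosen with earlier results of these data known. From each list the text names up to 3 called genes with the smallest p per comparison, of which 1 is not reported here. For likeness it names the 3 genes of highest r. Alternatives were no filter or a stricter filter on low values, quantile normalization, median centring, other moderation, library weights, a fit of the compared groups alone, a replicate block, each library left out, and both libraries with corneal transcripts left out. Recounting the lists under each was added after seeing the data.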

Additional observations from a re-analysis of the deposited data

Results flagged for a closer look

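In 5 of the 9 genes the change from floxed to cardioGRKO was not the same in males and in the libraries labelled female. By the same test of that difference (limma, Benjamini-Hochberg over 14721 genes), 31.3% of all genes tested were called. The differences, male change minus female change on the log2 scale, were 0.25 for Fbxo32, -0.46 for Fbxo40, -0.46 for Bnip3, -0.14 for Gabarapl1 and -0.19 for Map1lc3b. The sign of the female change rests on labels that Nr3c1 goes against. Atrial markers, which were called higher in male cardioGRKO hearts and lower in the libraries labelled female cardioGRKO, moved in opposite directions in the same comparisons, and their part in these differences was not tested.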

How the results depend on the processing

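Of 54 differences (9 genes in 6 comparisons), 38 kept their direction and their side of the threshold in all alternatives run. These include Trim63 and Sqstm1 in both genotype comparisons, Bnip3 and Fbxo32 in males, and Fbxo40, Gabarapl1 and Map1lc3b in the libraries labelled female. Without the 2 libraries with corneal transcripts, 2734 genes were called in the female comparison, against 4309, and 4 of the 9 genes in the comparison of floxed groups, against 7. Signs turned only for differences that were not called. After quantile normalization Foxo3 stood at 0.0065 in the libraries labelled female, the difference between the sexes at 0.038 for Trim63 and 0.019 for Sqstm1, and Sqstm1 at 0.037 between the floxed groups. The average stood at -0.0053 for Foxo1 and -0.0012 for Foxo3 after median centring, and at -0.0062 and -0.012 without the 2 libraries with corneal transcripts. Leaving out 1 library at a time, it ranged from -0.015 to 0.011 for Foxo1 and from -0.0088 to 0.018 for Foxo3, and Foxo3 in males from -0.0007 to 0.052. The cause was not tested. The replicate numbers are not said to pair the libraries. Deviations of same-numbered libraries from their group means correlated at -0.056 to 0.066 in males and -0.11 to 0.148 in the libraries labelled female. Not every library correlated best with its own number, but with 3 libraries a group such correlations cannot exclude pairing. With the replicate number as a block 3752 genes were called in males and 3988 in the libraries labelled female, and Fbxo40 in males was not called (-0.10, limma adjusted p = 0.0738).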
